A study of Rattus norvegicus with 39 samples.

Results

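The proteasome genes of the rat liver were the 50 genes whose only symbol in the platform annotation began with Psma, Psmb, Psmc, Psmd, Psme, Psmf or Psmg and a digit, out of 18891 genes with a single symbol. They had 54 of the 23409 probe sets for coding genes, and each gene was represented by its probe set of highest mean. Another 2 probe sets with a pseudogene suffix were left out, and Psmb5, which encodes the standard subunit with chymotrypsin-like activity, was not analysed here. Their RNA levels came from 39 arrays (Affymetrix Rat Transcriptome 1.0), 3 for each of 13 groups of male Wistar rats aged 5 to 6 weeks. In the animals with ischemia, the vessels to the left and median lobes were clamped for 30 min, and the clamp was then released for 0, 0.5, 2 or 6 hr, where 0 hr means no reperfusion. Each of these 12 rats gave a pair of samples, the combined left and median lobes (reperfused) and the right lobe (non-ischemic), whose blood flow was not interrupted. Sham rats, 3 per time, had the same surgery and handling of the liver without ischemia, and 3 further rats were unoperated. Which lobe of the sham and unoperated livers was taken is not stated in the sources used here, and the reperfused samples mix 2 lobes.

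The proteasome is the main machine that degrades proteins tagged with ubiquitin in the cytosol and nucleus. Its core is a barrel of stacked rings, with outer rings of alpha subunits (Psma genes) that gate the entry and inner rings of beta subunits (Psmb genes) that carry the cutting sites. A cap of ATPases (Psmc genes), which unfold the substrate, and of non-ATPase subunits (Psmd genes), which bind and remove ubiquitin, sits on the ends of the core. In cells exposed to interferon, and constitutively in many leukocytes, Psmb8, Psmb9 and Psmb10 replace the standard cutting subunits and form the immunoproteasome, which favours peptides for presentation on MHC class I. The genes of the standard subunits are known to be raised together by the transcription factor Nfe2l1 when proteasome activity falls short. In RNA of whole liver, a change in the share of a cell type and a change in RNA per cell cannot be told apart.

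By role, the 50 genes comprised 7 of the alpha ring, 7 of the beta ring, 6 cap ATPases, 11 cap non-ATPases, the 3 immunoproteasome genes, 5 activators or inhibitors, 7 assembly chaperones, 2 copies with a like name (Psmb3l2 and Psmg4l1) and 2 genes that are named after a subunit but encode none (Psmc3ip and Psme3ip1). The term standard subunits is used for 30 of them, the alpha and beta rings and the cap without Psmb11, a beta subunit known from the thymus. Levels are log2 intensities, so a difference of 1 is a doubling, and levels of different genes are not compared because each probe set has its own response. Hepatocyte markers were among the brightest probe sets, with means over the 39 arrays of 19.90 for Alb (albumin), 19.59 for Ttr (transthyretin), 18.97 for Cps1 (an enzyme of the urea cycle) and 15.10 for Hnf4a (a liver transcription factor), while Serpina1 stood at 8.57. Psmg4l1 and Psmc3ip were dim, with a mean under 5, as were 10762 of all probe sets, so that their signal may be largely background.

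Promoters of the genes were taken from RefSeq (build GRCr8), each running from 250 bases before to 50 bases after the annotated start, and 44 of the 50 genes had one. Those missing were Psmd12, Psmd14, Psmd6, Psma7, Psmb11 and Psmb3l2. The promoters of 4 genes are shown as examples that hold the motifs marked, and they do not stand for all genes of their role. Psma3 and Psmc2 belong to the standard subunits that rose, and Psmb8 and Psmb10 to the immunoproteasome. Of the latter pair, Psmb10 was called higher in the reperfused lobes at 6 hr and Psmb8 was called in neither lobe. Capitals mark the core of the antioxidant response element (TGACNNNGC on either strand), which Nfe2l1 and related factors bind, in Psma3, and an ETS element (CCGGAAG on either strand), bound by factors of the ETS family, in Psmc2. In Psmb8 and Psmb10 they mark elements for interferon regulatory factors (GAAANNGAA on either strand), of which Psmb10 has 3, the upstream pair overlapping, and, near the upstream end of the Psmb8 window, a gamma-activated site (TTCNNNGAA), which STAT factors bind.
Psma3, chr6:95219499-95219798, plus strand: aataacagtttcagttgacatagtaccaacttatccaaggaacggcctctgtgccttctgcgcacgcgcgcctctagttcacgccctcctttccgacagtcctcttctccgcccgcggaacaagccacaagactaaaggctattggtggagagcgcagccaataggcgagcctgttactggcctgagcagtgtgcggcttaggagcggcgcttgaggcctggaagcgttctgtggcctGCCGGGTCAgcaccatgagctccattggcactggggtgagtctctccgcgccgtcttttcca
Psmc2, chr4:14162341-14162640, minus strand: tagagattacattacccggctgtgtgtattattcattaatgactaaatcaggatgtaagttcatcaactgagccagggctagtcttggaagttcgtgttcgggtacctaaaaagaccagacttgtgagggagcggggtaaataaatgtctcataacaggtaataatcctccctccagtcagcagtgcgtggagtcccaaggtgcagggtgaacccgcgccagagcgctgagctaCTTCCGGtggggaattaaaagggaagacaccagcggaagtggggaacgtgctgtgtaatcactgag
Psmb8, chr20:4656982-4657281, minus strand: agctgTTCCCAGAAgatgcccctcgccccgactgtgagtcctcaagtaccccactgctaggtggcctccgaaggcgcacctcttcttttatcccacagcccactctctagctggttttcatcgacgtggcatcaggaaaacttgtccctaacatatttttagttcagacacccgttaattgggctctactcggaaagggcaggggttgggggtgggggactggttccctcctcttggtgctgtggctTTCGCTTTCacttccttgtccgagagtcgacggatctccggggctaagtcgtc
Psmb10, chr19:50743243-50743542, minus strand: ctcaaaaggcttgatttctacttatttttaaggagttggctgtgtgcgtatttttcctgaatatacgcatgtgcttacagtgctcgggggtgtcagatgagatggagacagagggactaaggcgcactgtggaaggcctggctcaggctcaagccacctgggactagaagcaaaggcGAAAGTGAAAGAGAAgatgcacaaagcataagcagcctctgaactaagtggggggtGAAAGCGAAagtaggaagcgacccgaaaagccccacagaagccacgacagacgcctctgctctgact

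The antioxidant response core was found in 5 of the 26 standard subunits with a promoter, and in 3 of the 27 genes with a promoter that were called at 6 hr in the reperfused lobes, against 12.1% of all 33469 promoters. An ETS element was in 10 of 26 standard subunits and 11 of the 27 called genes, against 8.75% of all promoters. Among the 3 immunoproteasome genes, 2 (Psmb8 and Psmb10) held the element of interferon regulatory factors, which 5 of the 26 standard subunits and 9.71% of all promoters also held. The gamma-activated site occurred in 1 of these 3 genes, in 3 of the 26 standard subunits and in 8.87% of all promoters. These motifs were chosen after others had been looked at, and a match says only that the letters are in the window.

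Standard subunits rose in the liver of animals with ischemia, and they rose in both lobes. At 6 hr of reperfusion, 32 of the 50 genes were higher in the reperfused lobes than in the 12 pooled shams and none was lower (limma over all probe sets, q-value under 0.05). Over all 23409 probe sets, 11.5% were called higher and 5.12% lower in that comparison. The non-ischemic lobes had 29 of 50 genes higher and none lower, where 8.47% of all probe sets were called higher and 5.1% lower. The median log2 difference of the 50 genes from the shams was 0.70 in the reperfused and 0.65 in the non-ischemic lobes, beside -0.02 and 0.01 over all probe sets. Both comparisons used the same shams, and 27 genes were called in both.

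**Figure D1:**
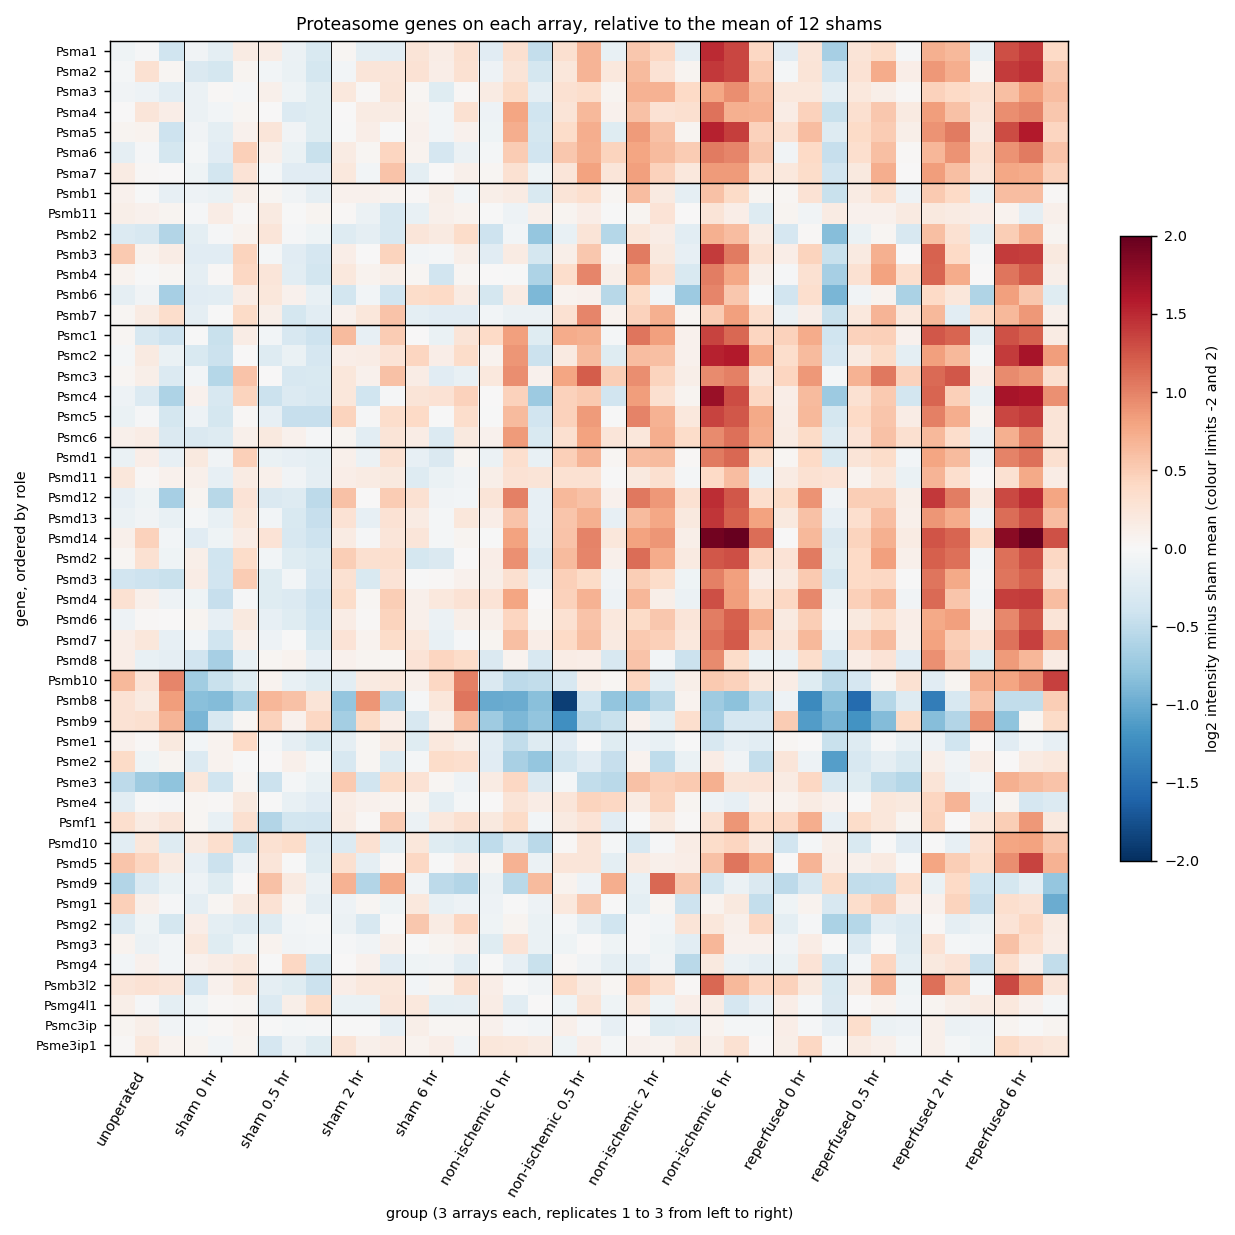
Log2 intensity of the 50 proteasome genes (rows, ordered by role, with lines between roles) on the 39 arrays (columns, in groups of 3), minus the mean of the 12 shams; red is higher and blue lower. The alpha ring and cap rows turned red in both lobes at 6 hr, where 26 and 27 of the 30 standard subunits were called, while Psmb8 and Psmb9 were called in neither.

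The plot of each gene's difference at 6 hr with its confidence interval gives the same comparison by role. All 7 alpha ring genes and all 6 cap ATPases were called higher in both lobes. Of the 11 cap non-ATPases, 10 were called in the reperfused and 9 in the non-ischemic lobes. Of the 7 beta ring genes, 3 and 5 were called. The median differences in reperfused and non-ischemic lobes were 0.84 and 0.85 for the alpha ring, 0.94 and 1.05 for the ATPases, 0.92 and 0.93 for the non-ATPases and 0.42 and 0.51 for the beta ring.

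**Figure D2:**
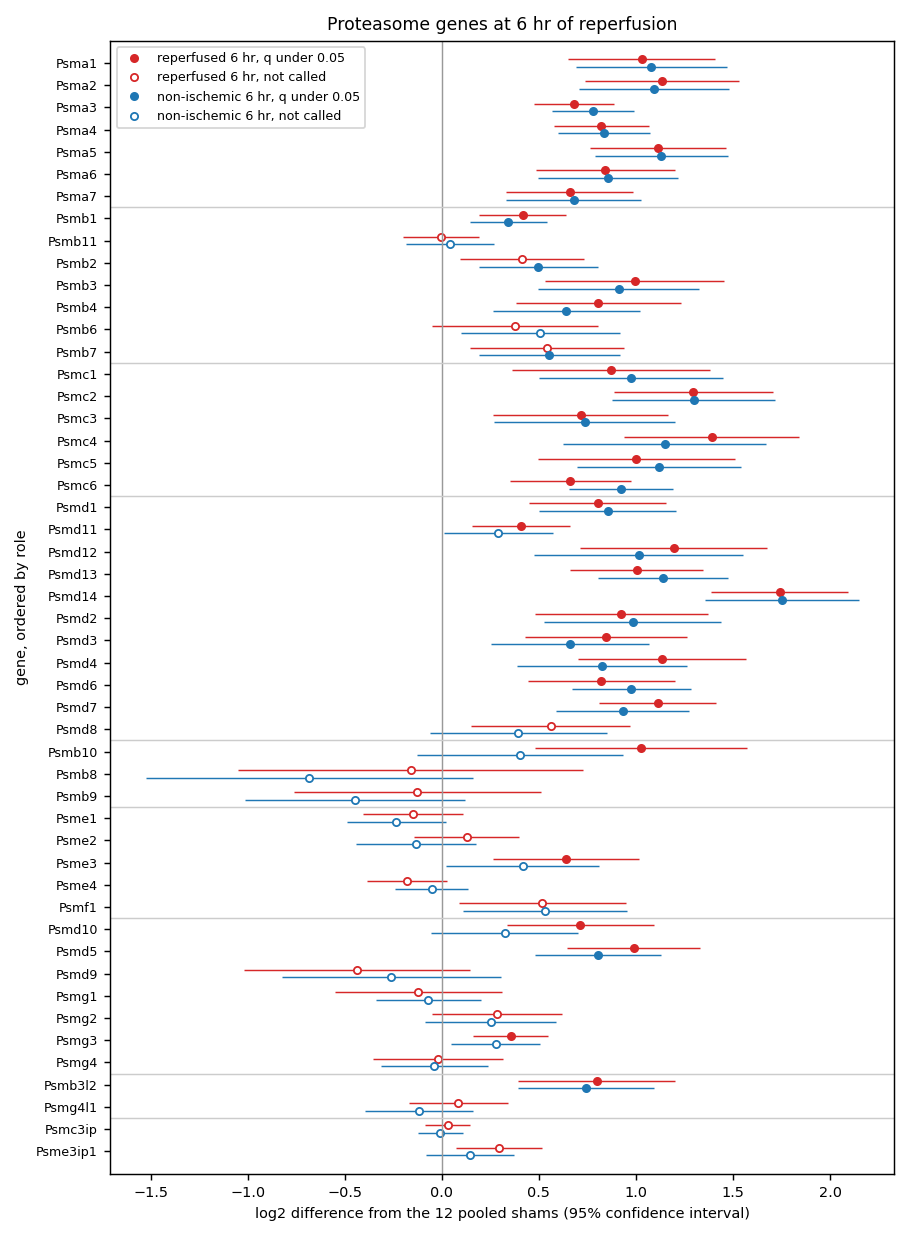
Log2 difference of the reperfused (red) and non-ischemic (blue) lobes at 6 hr from the 12 pooled shams for each of the 50 genes, with 95% confidence intervals; filled points had a q-value under 0.05. Psmd14 lay farthest to the right, at 1.74 and 1.75, and the intervals of Psmb8 and Psmb9 crossed 0 in both lobes.

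Psmd14, the cap's deubiquitinase that cuts the ubiquitin chain from a substrate, had the largest difference among the 50 genes. At 6 hr the reperfused samples had log2 intensities of 11.85, 12.18 and 11.32 and the non-ischemic samples of 11.98, 12.24 and 11.16, while the 12 shams ran from 9.63 over a median of 10.06 to 10.31. All 6 lobe samples lay above all shams. The log2 difference was 1.74 (SE 0.17, q = 1.74e-05), a 3.34-fold level, in the reperfused lobes and 1.75 (SE 0.19, q = 9.8e-05), a 3.37-fold level, in the non-ischemic lobes. Psmd7, the subunit that pairs with Psmd14 in the cap, stood at 14.28, 14.55 and 14.06 in the reperfused lobes, above the sham range of 12.78 to 13.55 (median 13.17). It rose by 1.11 (SE 0.14, q = 0.000145), and the non-ischemic samples, at 14.27, 14.41 and 13.66, were higher by 0.93 (SE 0.16, q = 0.00177).

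Psmd4, a ubiquitin receptor of the cap, had reperfused levels of 11.15, 11.16 and 10.39 at 6 hr, all above the sham range of 9.31 to 10.26 (median 9.78). The rise was 1.13 (SE 0.20, q = 0.00138). Of the non-ischemic samples, at 11.06, 10.60 and 10.12, the lowest sample lay within the sham range, and their rise was 0.82 (SE 0.21, q = 0.0154). Psmd12, a scaffold subunit of the cap's lid, was at 12.78, 12.93 and 12.24 in the reperfused lobes and at 10.90 to 12.05 in the shams, with a rise of 1.19 (SE 0.23, q = 0.00203). Psmd13, another subunit of the lid, stood at 11.50, 11.65 and 10.99 against shams of 9.92 to 10.67 and rose by 1.00 (SE 0.16, q = 0.000713) and, in the non-ischemic lobes, by 1.14 (SE 0.16, q = 0.000493). None of the reperfused samples of these 3 genes overlapped the shams. The other non-ATPases called in the reperfused lobes, Psmd1, Psmd2, Psmd3, Psmd6 and Psmd11, rose by 0.41 (Psmd11) to 0.92 (Psmd2), and Psmd11 was not called in the right lobes, at 0.29 (0.01 to 0.57, q = 0.172).

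Among the ATPases, Psmc4 and Psmc2 had the largest rises. Psmc4 was at 13.10, 13.07 and 12.37 in the reperfused lobes, clear of the sham range of 11.03 to 11.91 (median 11.49), and rose by 1.39 (SE 0.21, q = 0.00047). Its non-ischemic values of 13.18, 12.76 and 11.87 reached into the sham range, with a rise of 1.15 (SE 0.24, q = 0.0063). Psmc2, whose promoter holds the ETS element printed above, was at 14.08, 14.33 and 13.51 in the reperfused and 14.21, 14.27 and 13.44 in the non-ischemic lobes, against 12.24 to 13.10 (median 12.74) in the shams. No sample overlapped the shams, and the rise was 1.30 in both lobes (SE 0.19 and 0.20, q = 0.000384 and 0.00079). Psmc5 rose by 1.00 (SE 0.24, q = 0.00905) and 1.12 (SE 0.20, q = 0.00216), and the smallest rises were those of Psmc6 in the reperfused lobes, 0.66 (SE 0.15, q = 0.00585), and Psmc3 in the non-ischemic lobes, 0.74 (SE 0.22, q = 0.0374).

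In the alpha ring the rises ran from 0.66 for Psma7 to 1.13 for Psma2 in the reperfused lobes and from 0.68 for Psma7 to 1.13 for Psma5 in the non-ischemic lobes. Psma2 was at 13.77, 13.82 and 12.90 in the reperfused lobes against a sham range of 12.01 to 12.66 (median 12.37), a difference of 1.13 (SE 0.19, q = 0.000776). Psma5 was at 12.29, 12.56 and 11.41 against 10.73 to 11.22 (median 10.97), a difference of 1.11 (SE 0.16, q = 0.000387). Neither overlapped the shams. Psma3, another alpha subunit, had a smaller rise but little spread. It stood at 12.03, 12.25 and 12.04 in the reperfused and 12.19, 12.35 and 12.06 in the non-ischemic lobes, above the shams (11.18 to 11.68, median 11.45), with rises of 0.68 (SE 0.10, q = 0.000309) and 0.78 (SE 0.10, q = 0.000305). Psma1 rose by 1.03 (SE 0.18, q = 0.00106) and 1.08 (SE 0.18, q = 0.00157).

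The beta ring was uneven. Psmb3, a structural subunit, rose by 0.99 (SE 0.22, q = 0.00531) and 0.91 (SE 0.20, q = 0.00645) in the reperfused and non-ischemic lobes, and Psmb4, also structural, by 0.81 (SE 0.20, q = 0.0111) and 0.64 (SE 0.18, q = 0.026). Psmb1 rose less, by 0.42 (SE 0.11, q = 0.0125) and 0.34 (SE 0.09, q = 0.0241). Psmb6, the standard subunit with caspase-like activity, was at 12.75, 12.46 and 11.69 in the reperfused lobes, within or just above the sham range of 11.54 to 12.32, and its differences of 0.37 (95% confidence interval -0.05 to 0.80, q = 0.239) and 0.51 (0.10 to 0.92, q = 0.0997) were not called. Psmb7, with trypsin-like activity, differed by 0.54 (0.14 to 0.94, q = 0.0611) in the reperfused lobes and was called in the non-ischemic lobes, at 0.55 (SE 0.17, q = 0.0425). Psmb2 likewise missed the threshold in the reperfused lobes, at 0.41 (0.09 to 0.73, q = 0.0756), and passed it in the non-ischemic lobes, at 0.50 (SE 0.14, q = 0.0333). Psmb11 had differences of 0.00 and 0.04. The other standard subunit short of a call in the reperfused lobes was Psmd8 of the cap, with 0.56 (0.15 to 0.97, q = 0.0594). Psmb3l2, a copy of Psmb3, was called in both lobes (0.80 and 0.74) and correlated with Psmb3 at r = 0.90 over the 39 arrays, and signal from the parent gene on its probes was not tested.

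As a summary per array, the median over the 30 standard subunits of the log2 intensity minus the sham mean is called the standard subunit score. It was 1.07, 1.21 and 0.36 in the reperfused samples of 6 hr and 1.06, 1.07 and 0.41 in the non-ischemic ones, while the 12 shams ran from -0.31 to 0.28 and the unoperated livers from -0.17 to 0.02. All 6 lobe samples lay above every sham. In 4 of these 6 samples all 30 subunits were above their sham mean, and in the pair from animal 3 it was 29 and 27. The lobes of animals numbered 3 had the lowest score of their group at each of the 4 times, in both lobes. The labels do not say that a number marks a shared day or batch.

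**Figure D3:**
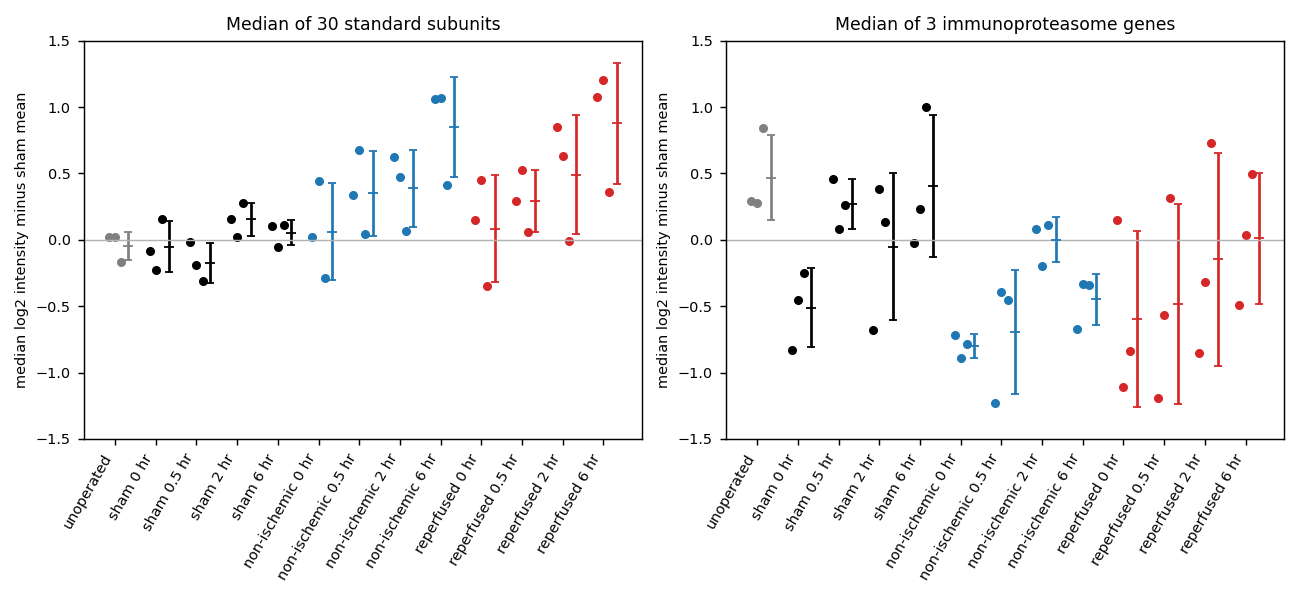
Median log2 intensity minus sham mean of the 30 standard subunits (left) and of the 3 immunoproteasome genes (right) on each array (points), with mean and SD of each group of 3 (bars). On the left the 6 lobe samples of 6 hr, 0.36 to 1.21, lie above all shams, and on the right those of 6 hr, -0.67 to 0.49, lie within the sham range of -0.83 to 1.00.

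The standard subunits also moved together from array to array. Over the 39 arrays, the 435 pairs among them had a median correlation of 0.83 (0.38 to 0.96), and for deviations from the group means the median was 0.83 as well. Each of 21 of the 30 correlated above 0.9 with the mean of the other subunits. Psmb8 and Psmb9 correlated with that mean at -0.36 and -0.32, Psmb10 at 0.32 and Psmb11 at 0.03. These points share normalization, and the lobes of an animal share that animal.

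Compared with the 3 shams of 6 hr alone, the calls at 6 hr were fewer. In the reperfused lobes 13 of 50 were higher (6.04% of all probe sets) and in the non-ischemic lobes 11 (4.4%), with none lower and with medians of 0.71 and 0.62. Those called in both lobes were Psmd14, Psma3, Psma4, Psma6, Psmd2 and Psmd13, and Psmd14 differed by 1.66 (SE 0.22, q = 0.0117) and 1.67 (SE 0.27, q = 0.0241). Against the 12 pooled shams, 17 genes in the reperfused lobes and 15 in the non-ischemic lobes had all 3 samples above all shams, which held for 6.96% and 5.39% of all probe sets. Without the sample of animal 1 the counts called against the pooled shams were 21 and 15, and without that of animal 2 they were 19 and 18. The shares of all probe sets called in these refits are not given. Of the 9 hepatocyte markers, 3 were lower in the reperfused lobes (Cps1, Tat and Ass1) and 1 in the non-ischemic lobes (Ttr). Of all probe sets, 5.12% and 5.1% were called lower. The mean difference per array of the 9 markers was -0.44 to -0.15 and -0.24 to -0.08 beside -0.14 to 0.22 in the shams. Their part in the result was not tested.

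Earlier after the clamp, fewer genes were called. At 2 hr, 7 of the 50 genes were higher in the reperfused lobes, where 3.95% of all probe sets were higher and 2.94% lower, and 5 in the non-ischemic lobes, with 3.9% and 2.94% of all probe sets called higher and lower. Psma3, Psma4, Psma5, Psma6 and Psmd14 were called in both lobes, and Psmd7 and Psmd5 in the reperfused lobes. All 7 and all 5 were called again at 6 hr, against the same shams. At 2 hr Psma3 was at 11.89, 11.83 and 11.73 in the reperfused and 12.11, 12.12 and 11.81 in the right lobes, above the highest sham of 11.68, with rises of 0.39 (SE 0.09, q = 0.0214) and 0.59 (SE 0.10, q = 0.00585). Psmd14 was at 11.30, 11.20 and 10.41, all above the shams, with a rise of 0.93 (SE 0.17, q = 0.00487), while the right lobes were at 10.85, 10.93 and 10.16, of which the lowest lay within the sham range, with a rise of 0.61 (SE 0.16, q = 0.0386). The count in the reperfused lobes was 22 without animal 3, 1 without animal 2 and 0 without animal 1. The shares of all probe sets called in these refits are not given, so the swing cannot be ascribed to the proteasome genes. Against the 3 shams of 2 hr alone limma called 0 in both lobes, where 0.726% and 0.0% of all probe sets were called. There 6 and 3 members had an unadjusted p under 0.05, and the shares of all probe sets at that p are not given.

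At 0 and 0.5 hr no member was called in either lobe by limma. At 0 hr, 2 of 50 genes in the reperfused and 7 in the non-ischemic lobes had an unadjusted p under 0.05. Over all 23409 probe sets, 2768 and 2616 had such a p, and 0.0128% and 0.00854% were called. At 0.5 hr, 15 and 20 genes had an unadjusted p under 0.05, beside 3370 and 3131 of all 23409 probe sets. Of all probe sets, 1.05% and 0.376% were called. The standard subunit score averaged 0.08 (SD 0.40, n = 3) and 0.06 (SD 0.37) at 0 hr, 0.29 (SD 0.24) and 0.35 (SD 0.32) at 0.5 hr and 0.49 (SD 0.45) and 0.39 (SD 0.29) at 2 hr in the reperfused and non-ischemic lobes. At 6 hr it averaged 0.88 (SD 0.46) and 0.85 (SD 0.38). The SDs of neighbouring times overlapped, those of 2 and 6 hr included. Against the 3 shams of 0.5 hr alone, 4 and 6 genes were called at 0.5 hr, 1 of the 6 as lower, where 4.57% and 5.4% of all probe sets were called.

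**Figure D4:**
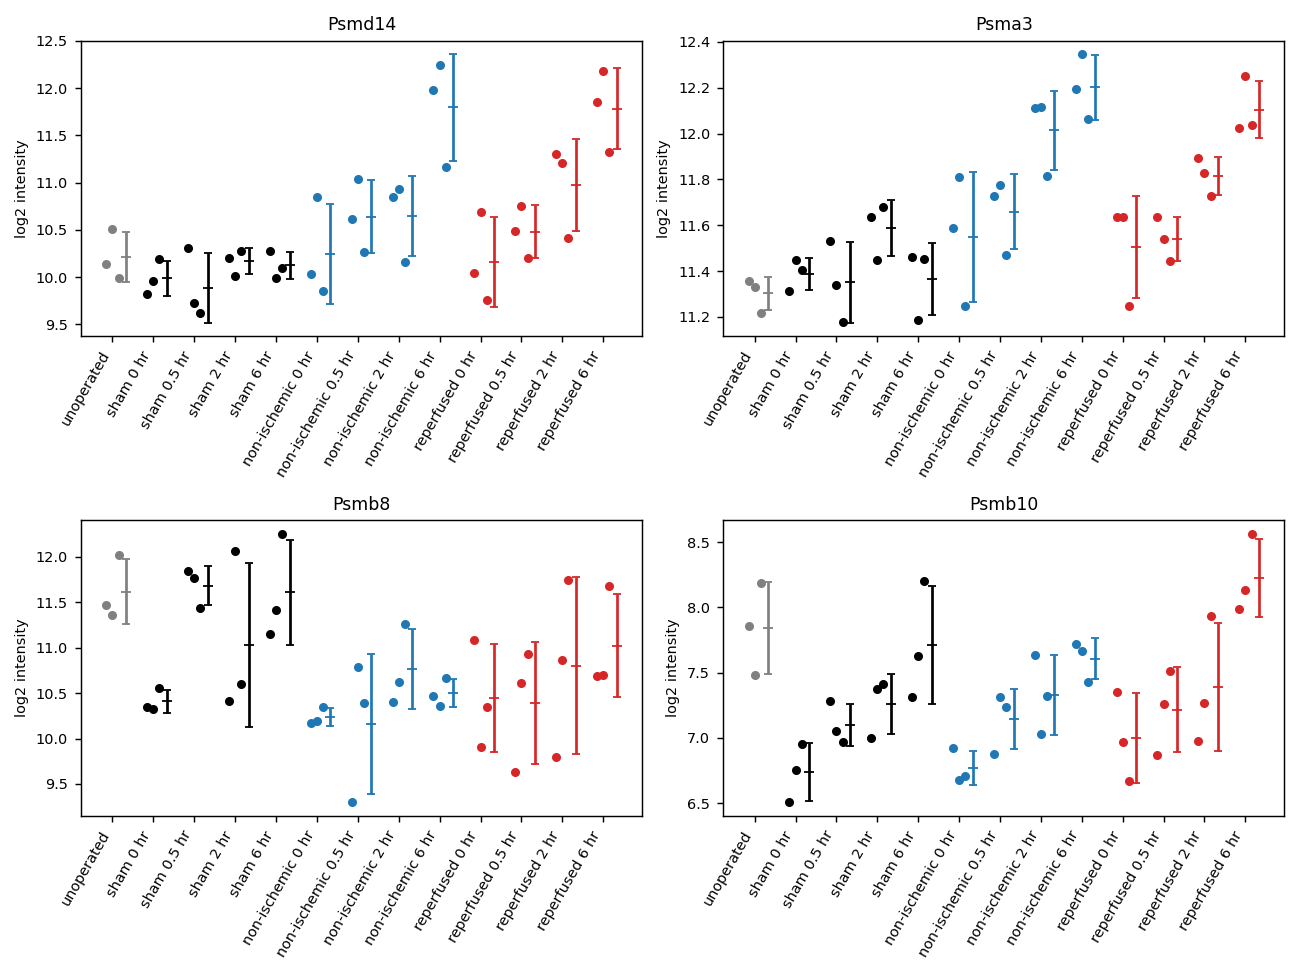
Log2 intensity of Psmd14, Psma3, Psmb8 and Psmb10 on each array (points), with mean and SD of each group of 3 (bars); grey is unoperated, black sham, blue non-ischemic and red reperfused, and each panel has its own scale. Psmd14 reached 12.18 and 12.24 at 6 hr in the reperfused and non-ischemic lobes, and Psmb8 ranged from 10.32 to 12.25 in the shams alone.

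From 2 to 6 hr, 1 member rose in each lobe by limma. It was Psme3 in the reperfused lobes (0.61, SE 0.12, q = 0.0453, with 3.66% of all probe sets higher) and Psmd5 in the non-ischemic lobes (0.67, SE 0.13, q = 0.0345, with 3.83% higher). The rise of Psmd14 was 0.81 and 1.15 and was not called. With the replicate number as a block, 7 and 14 members were called, all higher, where 5.15% and 5.42% of all probe sets were called higher. Same-numbered animals of 2 and 6 hr correlated at 0.16 to 0.47 and 0.11 to 0.47 in their deviations from the group means, over the probe sets that vary. Over the 4 times, an F-test called 6 of 50 genes in the reperfused lobes, 8 in the non-ischemic lobes and 8 in the shams, where 15.6%, 15.5% and 14.5% of all probe sets were called. Psmd14, Psma3, Psmd10, Psme3 and Psmb10 passed in both lobes, and among the shams Psmb10, Psmc2, Psmc5, Psmd4, Psmd8, Psmb2, Psmf1 and Psme3ip1.

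No difference of the reperfused from the non-ischemic lobe was called for any of the 50 genes at any time by limma, and the animal as a block gave 0 as well at each time. Members with an unadjusted p under 0.05 numbered 0 at 0 and 0.5 hr and 2 at 2 hr and at 6 hr, and with the block 1, 5, 9 and 3 at 0, 0.5, 2 and 6 hr. Without the block, 497, 1257, 1570 and 754 of the 23409 probe sets had such a p at these times. The matching counts over all probe sets with the block are not given, so the blocked counts of members cannot be read against a share. Of all probe sets, 0.0%, 0.0513%, 0.0128% and 0.0% were called at 0, 0.5, 2 and 6 hr. For the 30 standard subunits at 6 hr, the difference of reperfused minus non-ischemic ran from -0.26 to 0.31 with a median of -0.01, and the bounds of the single 95% confidence intervals reached from -1.01 to 1.15. Psmd14 differed by -0.01 (-0.84 to 0.81) and Psma3 by -0.10 (-0.37 to 0.18). Psmb10 at 0.62 (0.20 to 1.04, q = 0.951) and Psmd10 at 0.39 (0.11 to 0.67, q = 0.951) were higher in every reperfused than in every non-ischemic sample at 6 hr, as was Psmb8 at 0.52 (-0.17 to 1.21, q = 0.951), making 3 of 50 genes where 4.31% of all probe sets were higher with no overlap. Psme3 at 2 hr differed by -0.50 (-0.79 to -0.22, q = 0.41). With the animal as a block, the bounds for the standard subunits at 6 hr reached from -0.54 to 0.64, and Psmd14 had an interval of -0.27 to 0.25. The blocked intervals were 0.08 to 1.16 for Psmb10, 0.19 to 0.59 for Psmd10 and 0.02 to 1.02 for Psmb8 at 6 hr (limma, q = 0.756 each).

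Of the 3 immunoproteasome genes, Psmb8 and Psmb9 were called in neither lobe at 6 hr. Psmb8 was at 10.69, 10.70 and 11.68 in the reperfused lobes at 6 hr and at 10.47, 10.36 and 10.67 in the non-ischemic lobes, all within the sham range of 10.32 to 12.25 (median 11.29). Its differences of -0.16 (95% confidence interval -1.05 to 0.72, q = 0.834) and -0.68 (-1.53 to 0.16, q = 0.304) were not called. Psmb9 was at 8.37, 9.20 and 9.56 and at 8.50, 8.84 and 8.83, also within the shams (8.26 to 9.79), with differences of -0.13 (-0.76 to 0.51, q = 0.818) and -0.45 (-1.01 to 0.12, q = 0.314). The 3 non-ischemic samples of Psmb8 lay below all 3 shams of 6 hr (11.16, 11.42 and 12.25), a difference of -1.11 (SE 0.28, q = 0.0652). Without reperfused replicate 1 the differences from the pooled shams in the reperfused lobes were 0.00 for Psmb8 and 0.21 for Psmb9. A second probe set of Psmb8 correlated with the first at 0.87 and differed by -0.35 and -0.92, not called.

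Psmb10, which replaces the standard subunit with trypsin-like activity, was called in the reperfused lobes. In the reperfused lobes at 6 hr it stood at 7.99, 8.13 and 8.56, against 6.50 to 8.21 (median 7.17) in the shams, so that 2 of the 3 samples lay within the sham range, and it rose by 1.02 (SE 0.26, q = 0.0118). Non-ischemic samples, at 7.72, 7.67 and 7.43, differed by 0.40 (-0.13 to 0.93, q = 0.337). The shams of 6 hr were themselves at 7.31, 7.62 and 8.21, and against these alone the reperfused difference was 0.51 (-0.12 to 1.15, q = 0.279) and the non-ischemic one -0.11 (-0.66 to 0.44, q = 0.832). Without animal 3 the difference from the pooled shams was 0.86 (q = 0.0816).

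At 0 and 0.5 hr Psmb8 and Psmb9 had negative differences from the pooled shams in both lobes that were not called. Psmb8 differed from the pooled shams by -0.74 and -0.79 in the reperfused and -0.94 and -1.02 in the non-ischemic lobes, and Psmb9 by -0.51 and -0.56, and -0.80 and -0.74, with q from 0.273 to 0.575. Psmb10 differed by -0.21 and 0.01, and by -0.44 and -0.06. The 3 shams of 0 hr were also low in Psmb8, at 10.35, 10.32 and 10.55, while those of 0.5 hr were at 11.85, 11.76 and 11.44. All lobe samples of 0.5 hr lay below the shams of 0.5 hr in Psmb8. They were at 9.64, 10.62 and 10.93 in the reperfused and 9.30, 10.79 and 10.39 in the non-ischemic lobes. Psmb8 and Psmb9 correlated at r = 0.85 over the 39 arrays, and each with Psmb10 at 0.59 and 0.60. Leukocyte markers, whose cells are rich in these genes, had a mean difference per array of -0.09 to 1.14 in the reperfused lobes at 6 hr and -0.04 to 0.43 in the non-ischemic lobes, beside -0.27 to 0.24 in the shams. The 1.14 belonged to animal 3. Of the 13 markers, 2 were called (S100a8 and S100a9 of neutrophils, higher in the reperfused lobes), where 11.5% of all probe sets were called higher. Cd3e and Cd3d of T cells were at means of 4.14 and 4.30, near background. The part of leukocytes in the levels of Psmb8, Psmb9 and Psmb10 was not tested.

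Other genes of interferon response and antigen processing, taken from a list of 17 measured genes, were set beside them. At 2 hr 3 were higher in the reperfused lobes (Irf1, Ifit1 and Ifit3) and 2 in the non-ischemic lobes (Irf1 and Ifit1), with none lower. Of all probe sets, 3.95% and 3.9% were called higher. Irf1, a transcription factor of the interferon response, differed by 1.27 (SE 0.28, q = 0.0122) and 1.45 (SE 0.28, q = 0.00944) at 2 hr, when Psmb8 differed by -0.38 and -0.42, Psmb9 by -0.18 and 0.07 and Psmb10 by 0.19 and 0.12. At 6 hr 2 were higher in the reperfused lobes (Tapbp and Erap1), where 11.5% of all probe sets were called higher. B2m was lower in both lobes, as were 5.12% and 5.1% of all probe sets.

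Of the activators and the inhibitor of the core, Psme3 was called at 6 hr, in the reperfused lobes, and the others were called in neither lobe. Psme1 and Psme2 form the interferon-inducible activator PA28. Psme1 was at 11.86, 12.02 and 11.91 in the reperfused lobes at 6 hr, within the shams (11.78 to 12.47), and its differences of -0.15 (-0.40 to 0.11, q = 0.452) and, in the non-ischemic lobes, -0.24 (-0.49 to 0.02, q = 0.23) were not called. Psme2 differed by 0.13 (-0.14 to 0.40, q = 0.546) and -0.14 (-0.44 to 0.17, q = 0.618), and its second probe set by -0.24 and -0.36. Psme4, an activator known from histone degradation, differed by -0.18 (-0.38 to 0.02, q = 0.236) and -0.05 (-0.24 to 0.14, q = 0.772), and Psmf1, which inhibits the core in vitro, by 0.52 (0.09 to 0.95, q = 0.0975) and 0.53 (0.11 to 0.96, q = 0.0924).

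Psme3, the nuclear activator PA28 gamma, was at 12.45, 12.37 and 12.30 in the reperfused lobes at 6 hr, just above the highest of the shams (11.31 to 12.25, median 11.74), and rose by 0.64 (SE 0.18, q = 0.021). Non-ischemic samples, at 12.44, 11.99 and 12.01, differed by 0.42 (0.02 to 0.81, q = 0.168). Its second probe set, which correlated with the first at 0.88, was called in both lobes at 6 hr (0.97 and 0.87). The shams themselves exceeded the unoperated livers in Psme3 by 0.68 (SE 0.18, q = 0.0831), with no overlap.

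Among the assembly chaperones, Psmd5, which holds ATPases until the cap is built, had the largest rise at 6 hr. It stood at 8.52, 8.93 and 8.28 in the reperfused and 8.17, 8.65 and 8.36 in the right lobes, all above the shams (7.16 to 8.01, median 7.58), with rises of 0.99 (SE 0.16, q = 0.000751) and 0.80 (SE 0.15, q = 0.00305). Psmd10, another such chaperone, known as gankyrin, was at 8.43, 8.45 and 8.19 in the reperfused lobes, above the shams (7.20 to 8.02), and rose by 0.71 (SE 0.18, q = 0.0117). In the non-ischemic lobes the difference was 0.32 (-0.05 to 0.70, q = 0.274). The 2 probe sets of Psmd10 correlated at only 0.43, and the second was called in both lobes (0.61 and 0.54). Psmg3 was called in the reperfused lobes (0.35, SE 0.09, q = 0.0131), and Psmg1, Psmg2, Psmg4 and Psmd9 were not called, at -0.12, 0.28, -0.02 and -0.44. Of the genes that encode no subunit, Psme3ip1 differed by 0.29 and 0.15 and Psmc3ip by 0.03 and -0.01, and Psmg4l1 by 0.09 and -0.12, none of them called.

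Partners of the proteasome outside the symbols used here were taken from a list of 28 genes, of which 19 were measured. At 6 hr, 11 of the 19 were higher in the reperfused and 8 in the non-ischemic lobes, and none was lower, with medians of 0.54 and 0.41. Of all probe sets, 11.5% and 8.47% were called higher. Usp14, a deubiquitinase on the cap, differed by 1.44 (SE 0.16, q = 7e-05) and 1.26 (SE 0.21, q = 0.00142), and Vcp, the segregase that pulls out ubiquitinated proteins, by 0.54 (SE 0.08, q = 0.000308) and 0.52 (SE 0.08, q = 0.000879). Of 4 regulators of proteasome genes (Nfe2l1, Nfe2l2, Ddi2 and Ngly1), 1 was called in the reperfused and 2 in the non-ischemic lobes. All of these calls were lower, as were 5.12% and 5.1% of all probe sets. Ddi2, the protease that activates Nfe2l1, was lower by -1.89 (SE 0.23, q = 0.000102) and -1.63 (SE 0.27, q = 0.00137), and Nfe2l1 was lower in the non-ischemic lobes by -0.47 (SE 0.11, q = 0.0109). Averaged over the 4 regulators, the 6 hr shams themselves lay -0.28 to -0.20 from the pooled sham mean. The reperfused lobes of 6 hr lay at -0.60 to -0.29 and the non-ischemic lobes at -0.71 to -0.34. Array levels say nothing of the cleavage and turnover of the proteins.

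The shams of 6 hr exceeded the earlier shams in 1 of 50 genes, Psmg2, a chaperone of the core (0.50, SE 0.10, q = 0.0136, where 3.45% of all probe sets were higher), and none was lower. Psmg2 was at 8.02, 7.64 and 7.92 in these 3 shams, above all 9 others. Psmb10 differed by 0.68 (SE 0.20, q = 0.0723). Between the 12 pooled shams and the 3 unoperated livers no member was called by limma, where 1.25% of all probe sets were called. An unadjusted p under 0.05 was reached by 5 of the 50 genes, beside 3250 of all 23409 probe sets. The change from the earlier times to 6 hr was also set against the same change in the shams, a test added after the data had been seen. It was larger in the reperfused lobes for 3 of 50 genes, near the share of all probe sets (3.88% were higher). By limma these were Psmd14 by 1.13 (SE 0.30, q = 0.0355), Psmd10 by 0.94 (SE 0.25, q = 0.0355) and Psma3 by 0.56 (SE 0.13, q = 0.0196). In the non-ischemic lobes no member was called by limma (1.23% of all probe sets were higher), and Psmd14 there exceeded the shams by 1.18 (SE 0.33, q = 0.0762). An unadjusted p under 0.05 was reached there by 14 members, and the share of all probe sets at that p is not given.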

How the data were processed

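The authors hybridized RNA from frozen liver to Affymetrix Rat Transcriptome 1.0 arrays, normalized all 39 arrays together by SST-RMA in Affymetrix Expression Console 1.0 and deposited linear intensity values (4.59 to 999961.4) for 23409 probe sets of coding genes. Median intensity per array was 39.63 to 43.55. Here log2 was taken of them with no further normalization. Precision is limited by 3 arrays per group, and p-values measure the spread between these animals. Of the probe sets, 19778 had 1 gene symbol in the platform annotation, 419 several and 3212 none, and all 50 proteasome genes matched a RefSeq gene.

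Each comparison was a limma 3.58.1 fit (R 4.3.3, with Python 3.11.15 for annotation and figures) of the compared groups alone over all probe sets, adjusted after Benjamini and Hochberg (q-value, called under 0.05). The methods' interquartile range filter, above 0.2596, was left to the alternatives so that every member was tested, and 43 of the 50 genes passed it. Each lobe was compared at each time with the 12 pooled shams, with the other lobe and, at 6 hr, with 2 hr. The 6 hr shams were compared with earlier shams, pooled shams with unoperated livers, and the 4 times within each condition by an F-test. The change to 6 hr in a lobe minus that in the shams was added after seeing the data.

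Lobes of 1 animal were paired by the study's sampling, and their deviations from the group means correlated at 0.142 to 0.842 over probe sets above the interquartile range median. With the sham of the same number the reperfused lobes correlated at -0.232 to 0.178, so shams were not paired. Same-numbered animals of 2 and 6 hr correlated above 0.1 in both lobes, though no label states a shared day. So did those of 0 and 0.5 hr (r of 0.307 to 0.461 for reperfused, 0.357 to 0.432 for non-ischemic samples) and the shams of 0 and 2 hr (0.429 to 0.586), and those of 0.5 and 2 hr in both lobes and 0 and 2 hr in the reperfused lobes also passed 0.1. The pooled shams and the F-tests took these arrays as independent.

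The members and the gene lists were chosen with earlier results of these data known. Genes named with values were the immunoproteasome, activator and inhibitor genes, and for each comparison up to 10 called members with the largest rise and up to 5 with the largest fall. Members at the edges of each role and those not called were added after their values were seen. The fits were tested on simulated data. For the reperfused lobes at 6 hr against pooled shams, 52.5%, 89.5% and 98.5% of log2 changes of 0.5, 1 and 2 were recovered among 200 changed probe sets each. For the reperfused against the non-ischemic lobes at 6 hr, 0.0%, 54.0% and 95.0% were recovered. For the reperfused lobes at 6 hr against 2 hr it was 0.0%, 60.0% and 92.5%. Changes of 0.5 were thus missed in these last comparisons as simulated, with independent arrays. In the data the lobes of 1 animal correlate, the shams differ by time and more probe sets change. The recovered shares therefore need not hold for the real comparisons. The alternatives were the filters, quantile normalization, a trend and robust fit, the mean of all probe sets of a gene, other sets of shams, one model for the 36 arrays from operated rats, the replicate number as a block and leaving out each array.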

Additional observations from a re-analysis of the deposited data

Results flagged for a closer look

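The change from the earlier times to 6 hr differed between the reperfused lobes and the shams for 3 of the 50 genes, where 3.88% of all probe sets were called with a larger change in the reperfused lobes. The count of 3 lies near that share. For the non-ischemic lobes against the shams limma called 0 of the 50, with 14 at an unadjusted p under 0.05. The share of all probe sets at that p is not given. On the log2 scale the change in the reperfused lobes exceeded that in the shams by 0.56 for Psma3, by 0.94 for Psmd10 and by 1.13 for Psmd14 (limma, q = 0.0196, 0.0355 and 0.0355). The change itself was 0.48 in the reperfused lobes and -0.08 in the shams for Psma3, 0.79 and -0.15 for Psmd10, and 1.24 and 0.11 for Psmd14. Of the 50 genes, 43 had a larger change in the reperfused lobes than in the shams, with a median excess of 0.37, and 37 did in the non-ischemic lobes, with a median excess of 0.39. The shares of all probe sets with a larger change are not given. The genes are not independent, as pairs of standard subunits correlated at a median of 0.83. Animals of different times are different animals, and the cause of these differences was not tested.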

How the results depend on the processing

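No called difference of a named gene changed its sign, but 59 of 3266 repeats for single genes did so for differences that were not called, among them Psmb10 in the non-ischemic lobes at 6 hr (0.40, and -0.11 with the shams of the same time). Of the 3266 repeats, 2972 kept their side of the threshold. Beside the counts given here, 272 of 358 repeated counts stayed within 1.5 times their value or were 0 in both fits. Comparisons with no call in the main fit are included, so this share says little of how stable the counts above 0 were. The repeated counts below stand without the share of all probe sets called in the same repeat. Whether a shift concerns the proteasome genes or all probe sets cannot be read from them. With the shams of the same time alone, the calls in the reperfused lobes were 4 at 0.5 hr, 0 at 2 hr and 13 at 6 hr, and in the non-ischemic lobes 6, 0 and 11. With those shams and the replicate number as a block they were 1, 0 and 1 in either lobe, but the numbers do not pair lobes with shams. The block gave 7 calls for the reperfused and 14 for the non-ischemic lobes at 6 against 2 hr, and it changed no call between the lobes. At 2 hr the reperfused calls were 12 with the interquartile range filter (43 members tested), 12 with the filter on dim probe sets (48 tested), 11 with the mean of all probe sets and 4 with the trend and robust fit. The non-ischemic calls at 2 hr were 8, 9, 3 with the fit to all 36 arrays and 2 with the shams of 0, 0.5 and 2 hr. For the reperfused lobes at 6 against 2 hr the filters gave 0 and 2, the trend fit 0 and the fit to 36 arrays 4, and for the non-ischemic lobes the last gave 3. The 6 hr shams exceeded earlier shams in 2 genes with the dim filter, quantile normalization or the mean of all probe sets, and the sham time course had 3 calls with the trend fit. The filters test fewer probe sets and the other sham sets use fewer arrays; otherwise the cause was not tested.

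Leaving out each array in turn gave, at 6 hr against the pooled shams, 19 to 34 reperfused calls and 15 to 31 non-ischemic calls. These and the following counts also stand without the share of all probe sets. At 2 hr the ranges were 0 to 22 and 0 to 12. The 7 reperfused calls became 0, 1 or 22 without replicate 1, 2 or 3 of that group, 4 without sham replicate 1 of 0 hr, 2 of 0.5 hr or 2 of 6 hr, and 11 without sham replicate 3 of 2 hr. The 5 non-ischemic calls became 1, 0 or 10 without replicate 1, 2 or 3 of that group, 3 without sham replicate 1 or 2 of 0 hr or 2 of 6 hr, 10 without sham replicate 1 of 2 hr and 12 without its replicate 3. At 0.5 hr the ranges were 0 to 0 and 0 to 1. At 6 against 2 hr they were 0 to 1 and 0 to 5. The 6 hr shams gave 0 to 4 calls. The time course calls ranged from 1 to 8 for the reperfused, from 0 to 11 for the non-ischemic and from 2 to 10 for the sham groups.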
